A study of Rattus norvegicus with 10 samples.

Results

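The genes described here are the ligands and receptors of vascular endothelial growth factor (VEGF) signalling and the angiopoietin Angpt2, measured in mammary tumours of female Sprague-Dawley rats before and after oral hydroxytyrosol, a phenol of olive oil. The set holds 10 genes, chosen by name, and every probe set that the platform annotation of 2016 gives to exactly 1 of them was taken. That gave 17 of the 31099 probe sets on Affymetrix Rat Genome 230 arrays. Of these, 14 probe sets for 9 genes passed the filter on dim signals, among 18625 probe sets for 10839 genes.

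The carcinogen DMBA (dimethylbenzanthracene), given once by mouth at 100 mg/kg, had induced all tumours. The basal group holds 5 needle biopsies taken at 12 weeks of age, at a tumour volume of 2 cm3 and with no treatment. The final group holds samples of the same 5 tumours at 19 weeks of age, after 6 weeks of hydroxytyrosol, gavaged at 0.5 mg/kg 5 days per week, and sacrifice in week 7 after the biopsy. The tumours are called 66D2, 67D3, 45D3, 49I1 and 51I1, as in the labels, and each gave 1 basal and 1 final array. Wherever 5 values follow one another, they are in that order of tumours. The sample labels name the final piece a total tumour and the design text names it a needle sample, so the way of sampling may differ. No tumour of the later age without hydroxytyrosol was analysed here, so treatment, age, tumour growth and sampling cannot be told apart. The labels do not say whether the tumours came from different rats, so p-values measure how the final minus basal difference varied over these tumours.

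VEGF ligands are secreted proteins that bind receptor tyrosine kinases on endothelial cells, the cells that line blood and lymph vessels. Vegfa acts mainly through Kdr, while Flt1 binds Vegfa, Vegfb and Pgf and can hold ligand away from Kdr; Vegfc acts through Flt4 and is known for driving the growth of lymph vessels. The neuropilins Nrp1 and Nrp2 are co-receptors for these ligands and for semaphorins. Angpt2 is released by endothelial cells and modulates the receptor Tek, and Vegfa is a known target of the hypoxia-inducible factors that respond to low oxygen in tumours.

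Values are signals on the log2 scale after the authors' normalisation, so equal steps are equal ratios. Signals of different probe sets cannot be set against each other. Array medians over the tested probe sets lay between 7.67 and 7.80. The hexokinase control's 3' minus 5' difference, a sign of RNA degradation or short labelling, was 2.36 in the basal array of 45D3 and 2.03 in that of 67D3. On the other 8 arrays it lay between 0.89 and 1.29. Luminal epithelial markers marked the tissue in both groups, with Krt8 at 12.24 in basal and 12.30 in final samples and a summed log2 signal of the 8 markers from 14.83 to 15.33 in basal and from 14.87 to 15.30 in final arrays.

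No member differed between final and basal samples after adjustment over all probe sets (limma with the tumour as a block, Benjamini-Hochberg, 0 of 14 under 0.05). Over all 18625 probe sets the count was 0 as well (0% called), with a smallest adjusted p of 0.413. At an unadjusted p under 0.05 there was 1 member probe set, 1373807_at of Vegfa, against 8.02% of all probe sets in the same fit, so the members' share is near the background. The methods' t-test, a paired test on the same values, gave 0 members at that unadjusted level, against 7.48% of all probe sets. None of the 14 had the same direction in all 5 tumours, against 8.71% of all probe sets (4.75% lower and 3.96% higher). None had groups that did not overlap, against 1.24%, and none had a mean difference of at least 1 in size, against 0.886%. The mean was below 0 in 8 of 14, against 50% of all. The median difference was -0.15 over the 14 probe sets and -0.00031 over all tested, and the median size of a difference was 0.31 against 0.12.

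**Figure D1:**
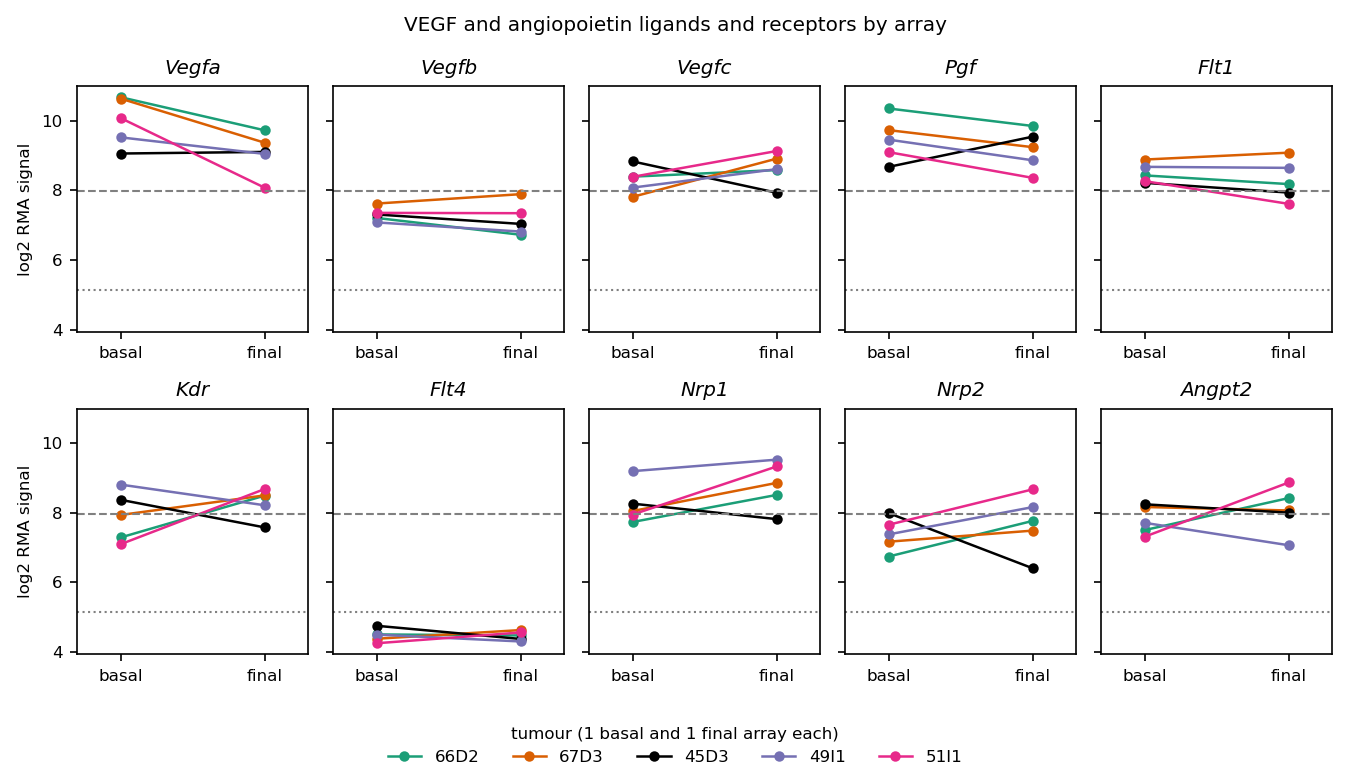
Log2 signal of each gene in basal and final arrays (vertical axis), with 1 line per tumour, for the brightest tested probe set of 9 genes and for Flt4. The dotted line is the dim cutoff of 5.14 and the dashed line the mean BioB spike-in signal of 7.97; Flt4 lies below the cutoff on all 10 arrays, and tumour 45D3 (black) runs against the other lines in Pgf, Vegfc, Nrp1 and Nrp2.

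Vegfa, the central angiogenic ligand, had a lower mean after treatment. Its brighter probe set, 1373807_at, read 10.68, 10.64, 9.06, 9.52 and 10.08 before treatment. In the final samples it read 9.73, 9.37, 9.11, 9.05 and 8.08. All 10 signals lay above that array's BioB spike-in, the study's measure of sensitivity. The final signal was below the biopsy signal in 4 tumours and 0.046 above it in 45D3, and the groups overlapped. Mean signal was 9.996 ± 0.70 (SD, n = 5) before and 9.06 ± 0.61 (SD, n = 5) after treatment. The log2 difference was -0.93 (SE 0.28, 95% interval -1.61 to -0.26), a basal level 1.91 times the final one, with an unadjusted p of 0.0143 and an adjusted p of 0.562 (limma). Leaving out any 1 tumour gave differences from -1.18 to -0.66. With the endothelial marker median as a covariate the difference was -0.66 (limma unadjusted p = 0.0325), with the hexokinase difference -1.19 (0.0191), and with the median of the skeletal muscle markers -0.78, where the unadjusted p was 0.147.

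The second Vegfa probe set, 1370081_a_at, covers another part of the transcripts or other variants, which the files do not say. It read 9.89, 8.83, 7.00, 8.52 and 8.90 in the biopsies, and 8.71, 7.76, 8.19, 7.23 and 6.79 in the final samples. It was lower in the same 4 tumours, and in 45D3 it was 1.18 higher, where the first probe set showed almost no difference. The difference was -0.89 (SE 0.43, limma adjusted p = 0.655), and -1.41 without 45D3. It was -0.59 without 51I1, -1.67 with the hexokinase difference as a covariate and -0.47 with the endothelial marker median as a covariate.

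Pgf, placental growth factor, a ligand of Flt1, read 10.35, 9.73, 8.67, 9.46 and 9.10 in biopsies (1368919_at). The final signals were 9.85, 9.24, 9.54, 8.86 and 8.36. It was thus lower in the same 4 tumours as Vegfa, by 0.49 to 0.74, and 0.87 higher in 45D3. The difference was -0.29 (SE 0.24, 95% interval -0.87 to 0.29, limma adjusted p = 0.774), and without 45D3 it was -0.58 (SE 0.09, adjusted p = 0.129). The other Pgf probe set, 1368918_at, differed by -0.19 with all tumours and by -0.59 without 45D3, and no tumour gave the probe sets opposite signs. Leaving out another tumour moved both toward 0, to -0.18 without 51I1 for the first, and to -0.045 without 49I1, -0.059 without 67D3 and -0.097 without 66D2 for the second. With the hexokinase covariate the values were -0.71 and -0.73. With the endothelial marker median as a covariate these values became -0.068 and 0.090.

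Because Vegfa and Pgf were lower together in 4 tumours while the co-receptor Nrp1 was higher in the same 4, the bases before their annotated starts are shown for comparison. The sequences are the 250 bases upstream of an annotated start on GRCr8 and read 5′ to 3′ on the gene's strand. Such windows were available for 9 of the 10 members (not Angpt2). For Vegfa, Pgf and Nrp1, the windows shown end at the gene start in the RefSeq annotation. Among the other member windows, those of Flt1, Nrp2 and a second Vegfa start lie inside the annotated gene. Those of Kdr and Vegfb overlap it. Capitals mark the core of the hypoxia response element, searched as ACGTG and GCGTG, and the GC box GGGCGG, all on both strands and with no overlap between the motifs. The windows are chr9:22452604-22452853 on the plus strand for Vegfa, chr6:110557748-110557997 on the minus strand for Pgf and chr19:73256307-73256556 on the plus strand for Nrp1.
Vegfa: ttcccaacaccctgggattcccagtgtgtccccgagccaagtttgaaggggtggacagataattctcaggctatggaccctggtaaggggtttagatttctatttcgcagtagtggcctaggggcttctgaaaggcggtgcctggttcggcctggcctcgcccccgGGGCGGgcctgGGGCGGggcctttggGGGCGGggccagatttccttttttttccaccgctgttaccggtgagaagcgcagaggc
Pgf: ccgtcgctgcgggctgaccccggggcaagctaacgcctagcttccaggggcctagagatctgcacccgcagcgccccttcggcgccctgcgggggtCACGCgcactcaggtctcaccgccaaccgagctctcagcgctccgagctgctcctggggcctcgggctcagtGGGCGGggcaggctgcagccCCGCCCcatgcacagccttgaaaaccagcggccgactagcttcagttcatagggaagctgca
Nrp1: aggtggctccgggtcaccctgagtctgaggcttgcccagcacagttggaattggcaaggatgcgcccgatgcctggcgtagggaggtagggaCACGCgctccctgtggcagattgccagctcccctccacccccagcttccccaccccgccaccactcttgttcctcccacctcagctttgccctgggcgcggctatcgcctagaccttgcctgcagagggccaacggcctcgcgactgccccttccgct

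The Vegfa window held 3 GC boxes, at 84, 73 and 58 bases before the start, and no match to the hypoxia core. The Pgf window held 1 hypoxia core, GCGTG on the antisense strand at 154 bases before the start, and 2 GC boxes. The Nrp1 window held 1 such core, antisense at 158 bases before the start, and no GC box. A hypoxia core stood in 6 of the 10 member windows, which count a second Vegfa start, and in 36.7% of 33469 windows of the same length. GC boxes stood in 7 of the 10, against 30.5%. These are matches of letters only, and no match says nothing of sites farther away.

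Vegfb, a ligand of Flt1, had a signal below BioB but above the dim cutoff on all 10 arrays. It read 7.21, 7.62, 7.31, 7.08 and 7.35 in biopsies and 6.72, 7.89, 7.04, 6.82 and 7.34 in final samples, with a lower final signal in every tumour except 67D3, where it was 0.27 higher. The difference was -0.15 (SE 0.13, 95% interval -0.46 to 0.16, limma adjusted p = 0.778).

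Vegfc, the ligand of lymph vessel growth, read 8.39, 7.81, 8.83, 8.08 and 8.39 in biopsies. It read 8.59, 8.91, 7.93, 8.61 and 9.13 in the final samples, higher in 4 tumours and lower in 45D3. The difference was 0.33 (SE 0.28, 95% interval -0.33 to 0.997, limma adjusted p = 0.774). It was 0.64 without 45D3, 0.14 without 67D3, 0.13 with the endothelial covariate, 0.60 with hexokinase as the covariate and -0.14 with the muscle markers.

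Angpt2, the vessel-destabilising angiopoietin, read 7.51, 8.17, 8.25, 7.71 and 7.31 in the biopsies. The final signals were 8.43, 8.07, 8.01, 7.07 and 8.87. It was higher in 66D2 and 51I1, by 0.92 and 1.56, and lower in the other 3 tumours. The difference was 0.30 (SE 0.33, 95% interval -0.48 to 1.08, limma adjusted p = 0.827), and it was -0.016 without 51I1, 0.14 without 66D2 and 0.53 without 49I1. It was 0.61 with the hexokinase, 0.50 with the skeletal muscle and -0.026 with the endothelial covariate. The signal lay above BioB on 6 of the 10 arrays.

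Flt1, the receptor shared by Vegfa, Vegfb and Pgf, was represented by 3 tested probe sets. The brightest, 1377113_at, read 8.43, 8.89, 8.22, 8.68 and 8.27 in the biopsies, and 8.18, 9.08, 7.94, 8.65 and 7.61 in the final samples. Only in 67D3 was the final signal above the biopsy's, by 0.20, for a mean difference of -0.20 (SE 0.14, 95% interval -0.53 to 0.12, limma adjusted p = 0.724). The probe sets 1370492_a_at and 1369087_at, whose signals lay below BioB on all 10 arrays, differed by -0.25 and -0.15. The hexokinase covariate gave -0.65 for 1370492_a_at, and the muscle covariate moved 1377113_at to -0.46 (limma unadjusted p = 0.0406). In 3 tumours the Flt1 probe sets did not share a sign, and in 51I1 their differences spread over 1.37, from -0.93 to 0.44. Those of Vegfa, Pgf and Nrp1 shared a sign in every tumour.

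Kdr, the main signalling receptor for Vegfa, read 7.29, 7.94, 8.38, 8.81 and 7.10 in biopsies (1367948_a_at). In the final samples it read 8.50, 8.50, 7.58, 8.22 and 8.69. The final signal was higher in 51I1, 66D2 and 67D3, by 1.59, 1.204 and 0.56, and lower in 45D3 and 49I1, by 0.79 and 0.59. The difference was 0.39 (SE 0.38, 95% interval -0.51 to 1.295, limma adjusted p = 0.802). It was 0.69 without 45D3, 0.64 without 49I1, 0.19 without 66D2 and 0.095 without 51I1. The hexokinase covariate gave 0.83 and the skeletal muscle covariate 0.18. A further Kdr probe set, 1397868_at, lay between 3.43 and 3.88 on all arrays, below the dim cutoff of 5.14, and was not tested.

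Flt4, the receptor of Vegfc on lymphatic endothelium, had 1 probe set, with signals from 4.25 to 4.76 in basal and from 4.30 to 4.63 in final arrays. All 10 lay below the dim cutoff, so a level above background was not shown and the gene was not tested. Markers of lymphatic endothelium were nonetheless measured, with Lyve1 at 8.09 ± 1.16 (SD, n = 5) before and 8.73 ± 1.69 (SD, n = 5) after treatment.

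Nrp1, the co-receptor that binds Vegfa with Kdr, read 7.74, 8.05, 8.27, 9.20 and 7.95 in biopsies (1373577_at). Final signals were 8.52, 8.86, 7.82, 9.53 and 9.33. The final signal was above the biopsy's by 0.33 to 1.38 except in 45D3, where it was 0.45 below. The difference was 0.57 (SE 0.25, 95% interval -0.03 to 1.17, unadjusted p = 0.0580, limma adjusted p = 0.637). Its other probe set, 1370570_at, differed by 0.51 (SE 0.28) and stayed within 0.36 of the first in every tumour. Without 45D3 these differences were 0.83 and 0.80, and without 51I1 they were 0.37 and 0.38. With the endothelial covariate they were 0.30 and 0.19, and with the skeletal muscle covariate 0.39 and 0.053. Hexokinase as the covariate gave 0.90 and 0.82.

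Nrp2, the co-receptor known for lymphatic vessels, read 6.75, 7.17, 7.99, 7.38 and 7.66 in the biopsies (1382995_at), and 7.77, 7.49, 6.41, 8.17 and 8.68 in the final samples. The final signal was above the biopsy's except in 45D3, where it was 1.59 below, the largest such opposition among the members. The difference was 0.31 (SE 0.39, 95% interval -0.62 to 1.25, limma adjusted p = 0.849). It was 0.79 without 45D3, 0.13 without 66D2, 0.14 without 51I1 and 0.19 without 49I1. With the hexokinase covariate it was 1.12 (limma unadjusted p = 0.00644). It was -0.096 with the endothelial covariate and -0.026 with the skeletal muscle covariate. The signal of 1382995_at lay above BioB on 2 of the 10 arrays. A second Nrp2 probe set, 1369824_at, stayed between 3.48 and 4.34 on all arrays and was not tested.

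**Figure D2:**
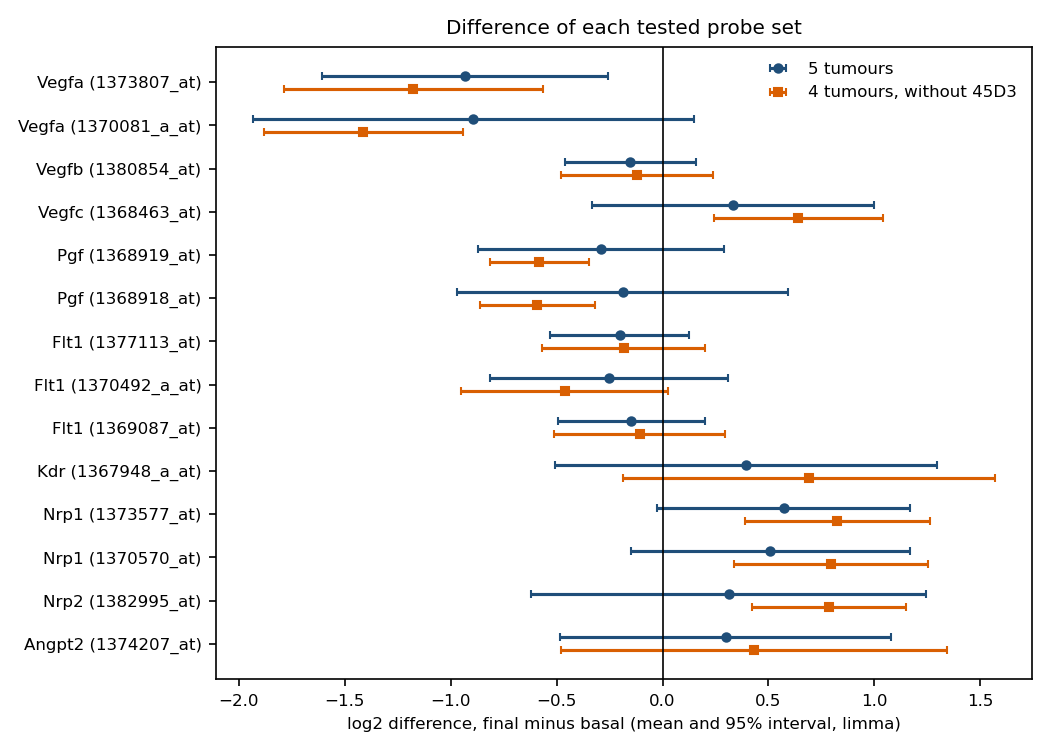
Mean log2 difference, final minus basal (horizontal axis), of the 14 tested probe sets with 95% intervals from limma. Circles use 5 tumours and squares the 4 tumours without 45D3; only 1373807_at of Vegfa has an interval off 0 with all tumours, and 8 do without 45D3.

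Tumour 45D3 thus differed in sign from the other 4 in 8 of the 14 probe sets, those of Vegfa, Pgf, Vegfc, Nrp1 and Nrp2. Of all tested probe sets 19.4% had this pattern, and 28.2% had a shared direction in those 4 tumours. Each tumour was left out in turn, and 45D3 was singled out for description after the values were seen. Without it, 8 of 14 member probe sets had an unadjusted p under 0.05, of which 4 were lower and 4 higher, while the share of all probe sets was 18.2% (9.7% lower and 8.47% higher). After adjustment 0 of the 14 passed (smallest limma adjusted p 0.108), as did 0 of all probe sets (smallest 0.0596). The basal array of 45D3 is the one with the highest hexokinase difference. With that difference as a covariate and all 5 tumours, 6 of 14 member probe sets had an unadjusted p under 0.05, against 13.8% of all probe sets, and 0 passed the adjusted threshold. Array weights, which let limma count less consistent arrays less, gave 0.67 for Kdr, 0.67 for Nrp2, 0.45 for Angpt2 and -0.48 and -0.46 for the Pgf probe sets. With 67D3 left out too, 9 of 14 had an unadjusted p under 0.05, against 16.8% of all probe sets.

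The biopsies already differed among themselves in these genes. The SD over the 5 basal arrays was 0.70 for 1373807_at of Vegfa, 0.64 for 1368919_at of Pgf, 0.72 for Kdr and 0.57 for 1373577_at of Nrp1, against a median SD of 0.26 over all tested probe sets. Between the lowest and highest biopsy, Kdr spanned 1.71 and 1373807_at of Vegfa 1.62. Vegfb and 1377113_at of Flt1 were more even, with SDs of 0.20 and 0.28. The Flt1 probe sets 1370492_a_at and 1369087_at were not, with SDs of 0.67 and 0.53. In final samples the SD of Nrp2 was 0.85 and that of Angpt2 0.67, against a median of 0.25.

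**Figure D3:**
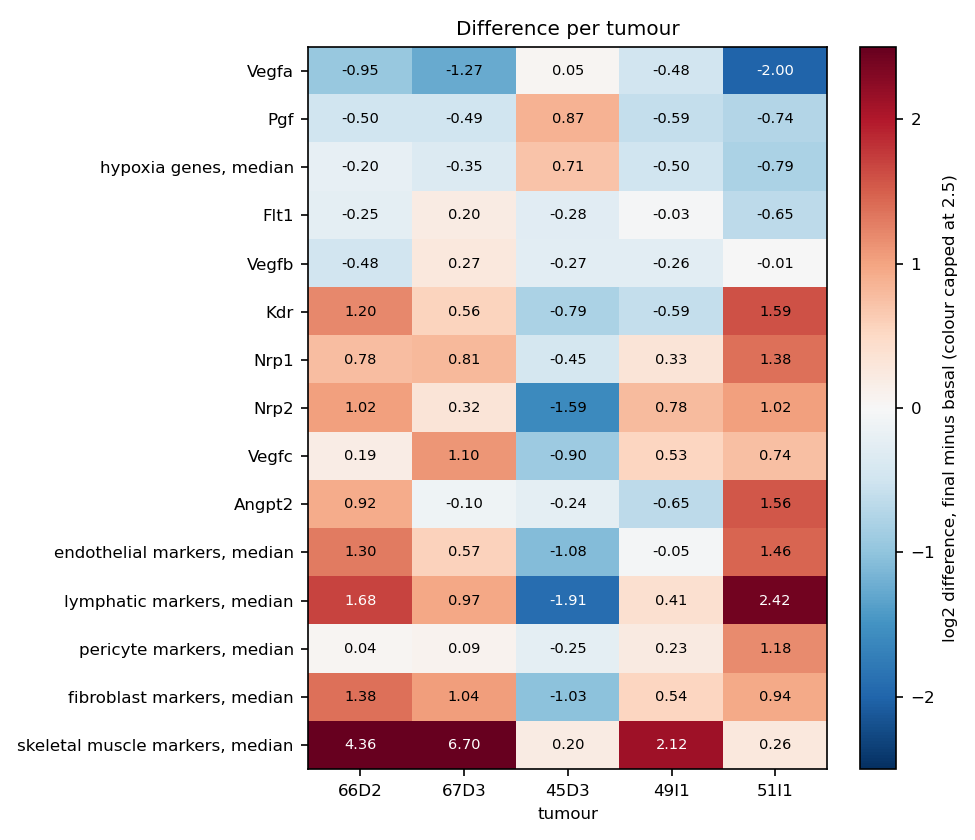
Log2 difference, final minus basal, in each tumour (columns) for the brightest tested probe set of each member and for the median of marker lists (rows), with the value printed in each cell. Vegfa, Pgf and the hypoxia genes are lower in 66D2, 67D3, 49I1 and 51I1, while Kdr and the endothelial markers share a sign in all 5 tumours. In 49I1 the endothelial median is only -0.047.

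The other genes were taken from lists that were drawn up with earlier results of these data known, and their medians are set beside the members without a test of the list. Of 18 genes induced by low oxygen, Vegfa not among them, 16 had a lower mean after treatment, with a median difference of -0.23; 0 passed the adjusted threshold, and 1 lower gene had an unadjusted p under 0.05, against 4.59% of all probe sets. The 3 with the smallest p were the histone demethylase Kdm3a (-0.33), Ndrg1 (-0.75) and Car9, a carbonic anhydrase (-0.71). By tumour the list median was -0.20, -0.35, 0.71, -0.50 and -0.79. Vegfa and Pgf had the sign of this median in all 5 tumours, though 1373807_at of Vegfa was only 0.046 higher in 45D3. Of all tested probe sets, 19.4% had 45D3 opposite in sign to the other 4 tumours. For 1373807_at, the Vegfa difference minus this median was -0.76, -0.92, -0.66, 0.023 and -1.21. The other Vegfa probe set, 1370081_a_at, differed by -1.18, -1.07, 1.18, -1.29 and -2.10. It thus lay above the list median of 0.71 in 45D3 and below that of -0.50 in 49I1, the reverse of 1373807_at. In 66D2, 67D3 and 51I1 both probe sets lay below the median, so the relation depended on the probe set in 45D3 and 49I1. The summed log2 signal of the list ranged from 13.94 to 15.16 in basal and from 14.15 to 14.94 in final arrays. Without 45D3 the list median was -0.40, with 12 of 18 at an unadjusted p under 0.05 against 18.2% of all probe sets, and without 51I1 it was -0.105, with 12 of 18 lower in the mean. The hypoxia-inducible factor subunits Hif1a and Epas1 differed by -0.13 and 0.17, and the subunit Arnt, with the smallest p of its list, by 0.24.

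Endothelial markers were higher in 14 of 15 genes tested, with a median difference of 0.48; 0 passed the adjusted threshold and 1, Vwf, had an unadjusted p under 0.05, against 3.43% of all probe sets that were higher at that level. Vwf, a clotting protein of endothelial cells, differed by 0.44, the mesh protein Mmrn2 by 0.81 and Ramp2, a receptor partner, by 0.62. Mmrn2 had a biopsy mean of 5.05, below the dim cutoff of 5.14, and a final mean of 5.86. It passed the filter only through its final signals, so the size of its difference is uncertain. The list median was 1.297, 0.57, -1.08, -0.047 and 1.46. Its summed log2 signal ranged from 10.72 to 11.92 in basal and from 11.03 to 12.55 in final arrays, and all 15 passed the dim filter. The median was 0.90 without 45D3, with 11 of 15 at an unadjusted p under 0.05 against 18.2% of all probe sets, and it was 0.26 without 66D2 and 0.23 without 51I1. Kdr stayed within 0.29 of this list median except in 49I1, with gaps of -0.093, -0.0074, 0.29, -0.55 and 0.13, a mean of -0.046 ± 0.32 (SD, n = 5). In 49I1 Kdr was 0.59 lower, below each of the 15 markers, of which 7 were higher in that tumour. With the list median as a covariate Kdr differed by -0.069 (SE 0.19, limma adjusted p = 0.999). Flt1 did not follow it, with gaps of -1.55, -0.37, 0.80, 0.018 and -2.11, a mean of -0.64 ± 1.18 (SD, n = 5). The mean gaps of Nrp1, Nrp2, Vegfc and Angpt2 were 0.13, -0.13, -0.11 and -0.14, with SDs from 0.45 to 0.76 (n = 5). In samples of whole tissue, fewer cells of a type and less RNA per cell cannot be told apart.

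**Figure D4:**
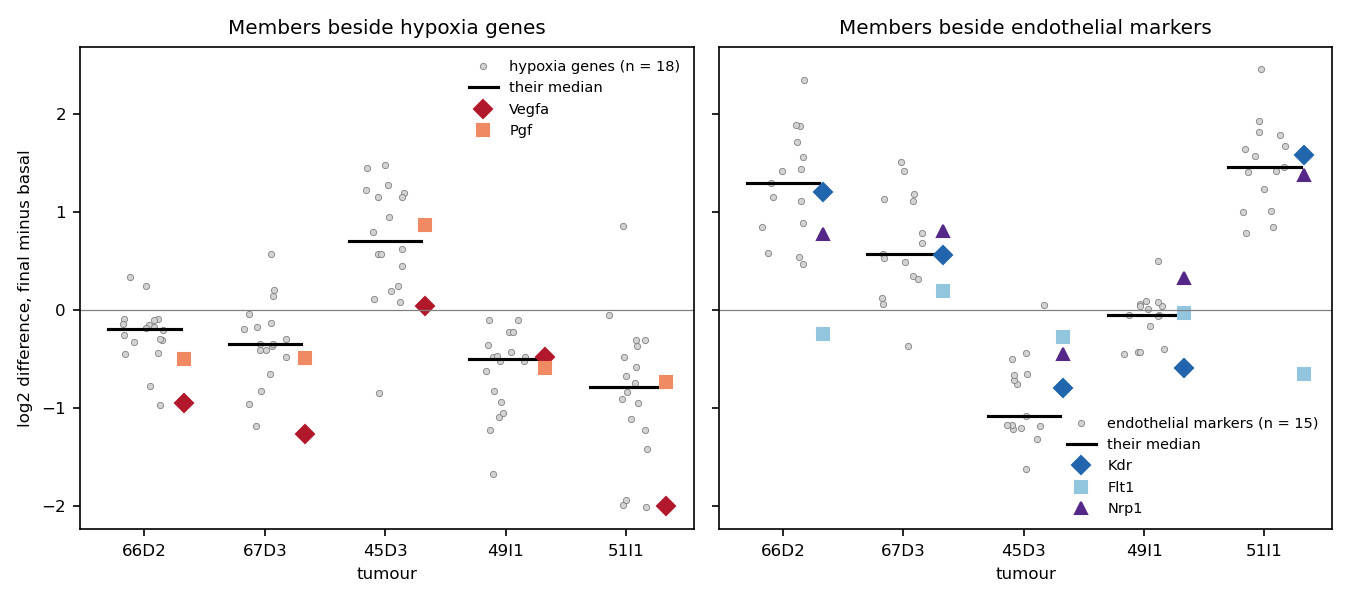
Log2 difference, final minus basal, in each tumour (horizontal axis) for single genes of the hypoxia list (left, 18 genes) and the endothelial list (right, 15 genes) as grey points with their median as a bar. Coloured symbols are members at their brightest tested probe set: Kdr minus the endothelial median runs from -0.55 to 0.29, and Flt1 minus that median from -2.11 to 0.80.

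Markers of other cell types differed along with these genes. Fibroblast markers had median differences of 1.38, 1.04, -1.03, 0.54 and 0.94, the same signs as Nrp1, Nrp2 and Vegfc, with 8 of 9 higher in the mean. A sign in 45D3 opposite to the other 4 tumours was seen in 19.4% of all tested probe sets. The summed log2 signal of the fibroblast markers went from 13.59 to 14.99 in basal and from 13.43 to 15.78 in final arrays. All 8 skeletal muscle markers tested were higher in the mean, most in 67D3 (median 6.70) and 66D2 (4.36), and 6 of the 8 had an unadjusted p under 0.05 (limma), against 3.43% of all probe sets higher at that level, with 0 past the adjusted threshold. Their summed signal ranged from 10.55 to 11.46 in basal and from 10.83 to 15.28 in final arrays. Their biopsy means lay below the dim cutoff for Mb, Ckm, Tnnt3 and Actn3, so these sizes are uncertain. These genes passed the filter only through their final signals, and Mb, Ckm and Tnnt3 are among the 6. That count therefore cannot be weighed against the share of all probe sets. Adipocyte markers were higher in 7 of 7 tested, while Plin1, Cidec and Lep were too dim to test. Of the 7, 2 had an unadjusted p under 0.05 (limma), against 3.43% of all probe sets higher at that level. The adjusted threshold was passed by 0. Their summed signals ranged from 10.52 to 11.52 in basal and from 10.79 to 13.66 in final arrays. Adipoq had a biopsy mean of 4.53, below the dim cutoff, and passed the filter only through its final signals. Macrophage markers were higher in 5 of 10, with medians of 0.83 in 66D2 and 1.06 in 51I1 and between -0.86 and -0.50 in the other 3, the signs of Angpt2. Beyond the covariate values given above, the part of these cells in the members' values was not tested.

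Among 20 other tested genes of VEGF, angiopoietin and Notch signalling in vessels, 15 were higher and 5 lower in the mean, with a median difference of 0.16, 0 past the adjusted threshold and 0 at an unadjusted p under 0.05. The smallest p belonged to the receptor Notch1 (0.34, higher in 5 of 5 tumours), the semaphorin Sema3c (0.37, higher in 4 of 5) and Esm1, a secreted endothelial proteoglycan (0.89, higher in 4 of 5). Esm1 was 2.92 higher in 51I1 and between -0.00085 and 0.56 in the other tumours. Tek, the angiopoietin receptor, differed by 0.74 (SE 0.56, limma adjusted p = 0.753), with the signs of Kdr in all 5 tumours, and its relative Tie1 by 0.43. Angpt1, the other main ligand of Tek, was below the dim cutoff.

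Genes with profiles most like 3 of the members were sought over the 10 arrays, after centring each gene on its own mean, by the root mean square difference. The closest to Vegfa of 10839 genes were Ero1a, an oxidase of the endoplasmic reticulum (0.39), Smox, spermine oxidase (0.40), Pgf (0.44), the glucose transporter Slc2a1 (0.45) and Kctd14 (0.46), where the median gene lay at 0.79. For Kdr they were Cyyr1 (0.19), Fzd4, a receptor of the Frizzled family (0.21), the endothelial transcription factor Sox18 (0.26), Camk2b (0.28) and Armcx4 (0.28), against a median of 0.63. For Angpt2 they were the chemokine Pf4 (0.26), the peptidase Prcp (0.27), Tmem37 (0.29), Dpep2 (0.30) and Prune2 (0.31), against 0.58. These are descriptions over arrays that share 5 tumours.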

How the data were processed

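RNA from 5 tumours, each sampled before and after treatment, was measured on 10 Affymetrix arrays. The authors used RMA (robust multichip averaging) to normalise the scans, as the design text and the processing notes state, and the deposited values were read as log2 signals from their range, since the labels name no scale. RMA forces arrays to a common distribution, so a global change in RNA would not show. Control probe sets, 57 in all, were part of the deposited table, and no column was left unused.

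Controls and probe sets in the lowest 40% of mean signal (below 5.14) were left out. A limma model (version 3.58.1, R 4.3.3) was fitted to all 18625 remaining probe sets, with the tumour as a block, since basal and final labels share tumour identifiers and the design text pairs them. Deviations from the group means correlated between the samples of a tumour at 0.72, 0.47, -0.16, 0.29 and 0.17. P-values were adjusted by Benjamini-Hochberg over all probe sets, with 4 residual degrees of freedom and a prior of 2.64. The fit was tested on simulated data. The arrays' number limits the precision. Array identifiers in the labels form separate runs for basal and final samples, so an effect of array order and the group cannot be told apart.

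The members and gene lists were chosen with earlier results of these data known. Values in every array were given for the brightest tested probe set of each member, and profiles were compared for Vegfa, Kdr and Angpt2 (5 nearest genes each). In the hypoxia, endothelial, lymphatic and vessel-signalling lists the 3 genes with the smallest p were named. In other lists not all of these were named, and the remaining names (Hif1a, Epas1, Tek, Tie1, Angpt1, Thbs2, Lyve1 and other marker genes) were chosen after their values were seen. Skeletal muscle as a covariate and leaving out 45D3 with 67D3 were added after the data were seen. Promoter windows came from RefSeq (GRCr8).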

Additional observations from a re-analysis of the deposited data

Results flagged for a closer look

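Among the 28 groups of 5 arrays examined (14 member probe sets in basal and in final samples), 1 held an array far from the others. The basal array of 45D3 read 6.09 for 1370492_a_at of Flt1, and its gap to the next biopsy was 0.76 of the group's range, above Dixon's critical value of 0.71. Chance flags about 1 in 20 such groups. The other 4 biopsies lay between 7.40 and 7.80. The same array read 8.22 for 1377113_at of Flt1, the lowest of the 5 but close to the others.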

How the results depend on the processing

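Across 17 alternatives, 229 of 237 member values kept their direction and side of the threshold, and 0 passed the adjusted threshold (smallest adjusted p 0.105). Centring each array, quantile normalization, other dim filters, array weights, a random block and the methods' t-test turned no member. With the endothelial covariate, 1368918_at of Pgf turned to 0.090, Kdr to -0.069, Nrp2 to -0.096 and Angpt2 to -0.026. With the skeletal muscle covariate, 1368918_at of Pgf turned to 0.37, Vegfc to -0.14 and Nrp2 to -0.026. Leaving out 1 tumour moved Angpt2 between -0.016 and 0.53. The cause was not tested.

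The count of member probe sets at an unadjusted p under 0.05, 1 with all tumours, was 6 with array weights, 6 with the hexokinase covariate, 0 with the methods' t-test and 9 without 45D3 and 67D3. Leaving out 1 tumour gave 1 to 8, with 8 without 45D3 and 2 without 51I1. The share of all probe sets moved too, to 17.5% with array weights and 13.8% with the hexokinase covariate. That covariate gave 2 probe sets past the adjusted threshold over all, where the paired fit gave 0 and no replicate block gave 0 (1001 at an unadjusted p under 0.05). Without the block the count of members was 1, as with it. Signals near or below BioB (Vegfb, Nrp2, 2 Flt1 probe sets) limit what those values show. Kdr, Nrp1, Angpt2 and 1370081_a_at of Vegfa lay above BioB on only 6 or 7 of the 10 arrays. The same limit applies to most endothelial markers, with biopsy means below the mean BioB signal of 7.97. Those of Sox17, Clec14a, Erg and Pecam1 were 6.06, 6.07, 6.31 and 7.49. Only Esam and Ramp2 had biopsy means above it, 8.04 and 8.29.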

Other observations

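All 6 lymphatic endothelial markers had a higher mean in final samples, with 0 past the adjusted threshold and 0 at an unadjusted p under 0.05. Ccl21, a chemokine of lymphatic endothelium, differed by 4.80, 5.46, -3.90, 1.53 and 5.18 in 66D2, 67D3, 45D3, 49I1 and 51I1. Its mean difference was 2.62 (SE 1.38, limma adjusted p = 0.661). Mmrn1, a matrix protein of these vessels, had a biopsy mean of 5.19, close to the dim cutoff of 5.14, so the sizes of its differences are uncertain. It ran the same way as Ccl21, with differences of 2.65, 4.38, -4.01, 1.13 and 5.71, while Pdpn stayed between -0.11 and 0.55. Reln, with the smallest p of the list, did not run this way. It differed by -0.054, 0.11, 0.70, 0.26 and 0.80, so it was higher in 45D3. Prox1 differed by 0.73, 0.86, -0.80, 0.15 and 1.81. The list median had the sign of Vegfc and Nrp2 in all 5 tumours. Such a sign in 45D3, opposite to the other 4 tumours, was seen in 19.4% of all tested probe sets. The list median was 0.59 with all tumours, 1.22 without 45D3 and 0.24 without 51I1.

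Of 7 pericyte markers tested, 6 were higher in the mean with a median difference of 0.20 (-0.074 without 51I1), and 1, Anpep, had an unadjusted p under 0.05 (0.62), where 3.43% of all probe sets were higher at that level. Among 14 other angiogenic factors and inhibitors, 11 were higher and 3 lower (median 0.13), and 0 passed the adjusted threshold. Of the 14, 1 had an unadjusted p under 0.05, the growth factor Mdk, which was higher (0.44). Over all probe sets 3.43% were higher at that level, and 8.02% passed it in either direction. The chemokine Cxcl12 differed by 0.82 and the inhibitor Thbs2 by 0.97, higher in 4 of 5 tumours and lower in 45D3 for both.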
